A study of Macaca mulatta with 30 samples.

Results

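Cell cycle and DNA replication genes were followed in the lung and hippocampus of fetal rhesus macaques exposed to corticosteroids before birth. The 50 genes were listed by symbol and divided by role into 10 G1 cyclins, kinases and E2F factors, 3 inhibitors of cyclin-dependent kinases (CDKs), 14 DNA replication genes, 10 regulators of G2 and mitosis and 13 genes of the mitotic apparatus. An identifier with a matching symbol was found for 45 of them among the 30246 identifiers of the lung table and for 46 among the 32386 of the hippocampus table, and each of these was tested together with all other genes that passed a minimum of reads (17644 in lung, 17390 in hippocampus). CCND2, CDK2, CDKN1A and CDKN1B had no matching identifier in either table, and CDKN1C had one only in hippocampus, so none of the 3 inhibitors among these genes was measured in lung.

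Lung RNA came from 5 groups of 3 fetuses each, with an age labelled as gestational day 124 to 130, which may not be the age at delivery. Their mothers received 1 intramuscular injection of saline, of the clinical drug (Celestone, a mixture of betamethasone acetate and betamethasone phosphate, 0.25 mg/kg) 4 hours or 5 days before delivery, or of betamethasone acetate alone (Beta-Ac, 0.125 mg/kg) 6 hours or 5 days before delivery. Hippocampus RNA came from 3 groups of 5 fetuses, delivered between gestational days 130 and 136 with a labelled interval of 5 days, whose libraries are named CTL (control), BAC and CEL. All animals were wild type where a genotype was given, and within a tissue each library was a separate fetus. For the hippocampus the treatment labels contradict the library names: they give BAC libraries the mixture at 0.25 mg/kg and CEL libraries Beta-Ac at 0.125 mg/kg. For the 6 treated animals that also gave lung RNA, the lung labels match the library names instead, so BAC is read here as Beta-Ac and CEL as the clinical drug. The 3 saline lung fetuses also gave 3 of the 5 CTL libraries, where the labels give them gestational days 131 to 135.

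A cell commits to division in G1, when cyclin D with CDK4 or CDK6 and cyclin E with CDK2 release the E2F factors. E2F factors raise the transcription of the genes that load the MCM helicase on origins and supply nucleotides, and FOXM1 and its partners later raise those needed for mitosis. Most of these RNAs are high only in dividing cells, so their level in a whole tissue moves with the share of cells in cycle. In bulk tissue, fewer dividing cells and less RNA per dividing cell cannot be told apart. Antenatal glucocorticoids are given to mature the lung, and the dentate gyrus of the hippocampus keeps dividing precursors into late gestation.

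Counted reads per library numbered 14.1 to 45 M in lung and 18.3 to 29.3 M in hippocampus. Levels are given as CPM (counts scaled to the size of the library) after adjustment by the trimmed mean of M-values, and they are compared within a gene, not between genes. The surfactant gene SFTPC reached at least 2710 CPM in every lung library and at most 0.43 CPM in hippocampus, while the forebrain factor NEUROD2 was listed at 0 in all lung libraries and reached at least 62.1 CPM in hippocampus. FKBP5, PER1 and ZBTB16, which glucocorticoids induce in most tissues, were all higher than in saline lungs at 4 hours and at 6 hours (3 of 3 in each comparison), and none passed the thresholds at 5 days in either tissue. Beta-Ac 6 h replicate 3 was the highest of the 15 lung libraries for all 7 erythroid markers measured, with a summed level of 897 CPM against 48 to 424 CPM in saline lungs. CTL replicate 5 held 770 CPM of 3 choroid plexus markers, against 0.98 to 4.61 CPM in the BAC and CEL libraries.

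In lung 4 hours after the clinical drug, 2 of the 45 genes passed the thresholds, and both fell: CCND1, the cyclin D1 gene, and BUB1B, the gene of a spindle checkpoint kinase. A change had to reach 1.5-fold, with p below 0.05 and adjusted p below 0.1 in edgeR's quasi-likelihood test. Among all genes tested, 7.4% passed these thresholds and 3.94% were lower, so the count of 2 (4.44%) was near the background. The other members lay mostly on the same side: 40 of the 45 had a negative log2 fold change, with a median of -0.24 against 0.02 over all genes tested. Cell type markers moved in the same comparison. All 6 T and B cell markers measured had negative log2 values (median -0.98) and 2 of them passed, with summed levels of 16.3 to 29.2 CPM against 28.6 to 48.3 CPM in saline libraries. Of 6 endothelial markers 5 were negative and KDR passed (2330 to 3100 against 3160 to 3440 CPM summed), and of 5 lung epithelial markers all were positive and 2 passed (12200 to 18200 against 7030 to 10400 CPM). No marker of these lists was at 0 in every library, and their part in the members' values was not tested.

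CCND1 had the smallest adjusted p of the members in the lung comparisons with saline. Its level was 163, 144 and 184 CPM in the saline libraries and 62.8, 93.5 and 90.4 CPM 4 hours after the clinical drug. All 3 treated libraries were below all 3 controls, with a log2 fold change of -0.998 ± 0.184 (SE) and an adjusted p of 0.00349. At 6 hours after Beta-Ac the level was 120, 143 and 124 CPM, also below each control, but the log2 difference of -0.35 ± 0.18 did not pass (adjusted p = 0.37, edgeR). At 5 days the level was 196, 168 and 121 CPM after the clinical drug and 137, 134 and 172 CPM after Beta-Ac, both overlapping the controls. Set directly against the libraries taken at 4 hours, the clinical drug at 5 days had more CCND1, by 0.98 ± 0.18 on the log2 scale (adjusted p = 0.00304). It was the only member called in that comparison, where 10.4% of all genes passed and 5.92% were higher. The fall at 4 hours and the later difference kept their calls in all 13 alternative fits, with log2 values from -1.11 to -0.85 and from 0.81 to 1.17.

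Among the other G1 genes no member was called against saline at 4 hours, but 7 of the 8 genes of the role had negative log2 values, with a median of -0.47. E2F2, an activating E2F factor, was lowest after CCND1, with 4.12, 3.66 and 3.57 CPM against 6.78, 8.63 and 5.67 CPM in saline libraries (log2 -0.88 ± 0.41, adjusted p = 0.18). E2F1 stood at 4.03, 8.15 and 5.38 CPM against 8.62, 6.78 and 8.84 CPM, and these groups overlapped. CDK6, the second partner kinase of cyclin D, was at 2.48, 2.84 and 2.69 CPM, each below the saline libraries at 3.39, 4.38 and 3.36 CPM, and did not pass (-0.48 ± 0.33, adjusted p = 0.34). CCNE2, a cyclin E gene, had the only positive value of the role, 0.38 ± 0.23 on the log2 scale, and did not pass. CDK4, the partner kinase of cyclin D, varied little, from 101 to 122 CPM over all 15 lung libraries.

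**Figure D1:**
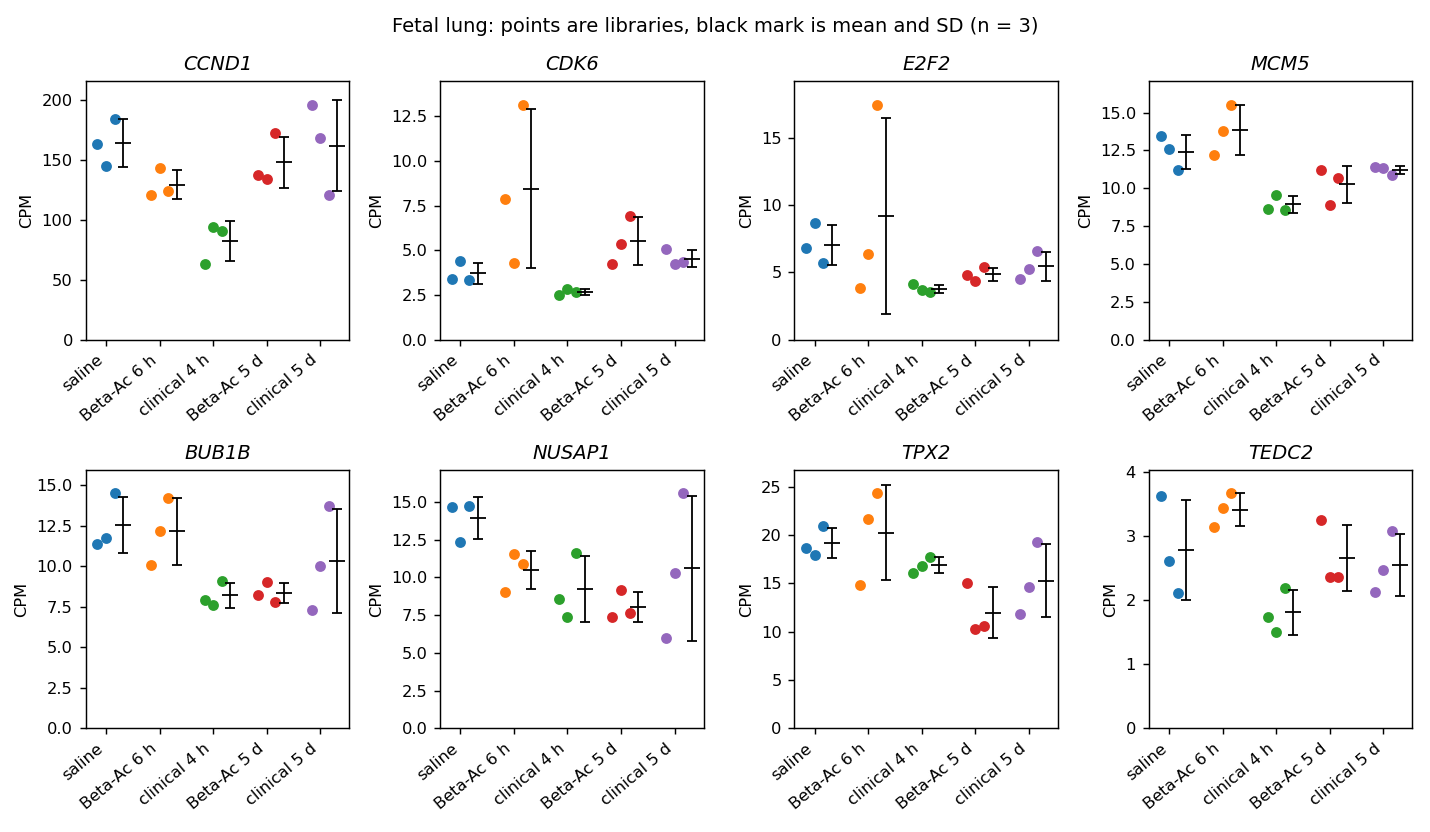
Level in CPM (vertical axes, from 0) of 8 genes in each lung library, by group on the horizontal axes, with the mean and SD of 3 libraries in black. CCND1 is lowest in the clinical 4 h libraries (62.8 to 93.5 CPM), and Beta-Ac 6 h replicate 3 stands above the other libraries for CDK6 and E2F2.

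Among the replication genes at 4 hours, 3 subunits of the MCM helicase passed the adjusted p but not the fold. MCM4 was at 19.3, 21.1 and 24.5 CPM against 32.4, 29.6 and 31.5 CPM in saline libraries, with no overlap (log2 -0.53 ± 0.15, adjusted p = 0.031). MCM5 was at 8.64, 9.57 and 8.58 CPM against 13.4, 12.6 and 11.2 CPM (log2 -0.48 ± 0.14, adjusted p = 0.045), and MCM3 showed -0.42 ± 0.15 (adjusted p = 0.096). The remaining subunits lay nearer to control: MCM2, MCM6 and MCM7 had log2 values of -0.11, -0.08 and 0.13, and none passed. CDC45, which joins the helicase when it is activated, was highest of the role at 0.35 ± 0.28, and MCM4 was lowest. PCNA, the sliding clamp of the DNA polymerases, was at 37.4, 47.6 and 38.8 CPM against 50.4, 40.9 and 54.7 CPM, and RRM2, a subunit of ribonucleotide reductase, at 13.8, 19.8 and 17.9 CPM against 17.0, 20.9 and 20.2 CPM. Neither of these differences passed.

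Of the G2/M and mitotic genes at 4 hours, BUB1B alone was called. It was at 7.94, 7.63 and 9.08 CPM against 11.4, 11.8 and 14.5 CPM in saline libraries (log2 -0.61 ± 0.21, adjusted p = 0.079). This call was lost in 7 of 13 alternative fits, where the adjusted p reached 0.24, and the log2 value stayed between -0.70 and -0.49. CDC25C, a phosphatase that activates CDK1, was lowest of the G2/M role (-0.63 ± 0.27) and PLK1, a mitotic kinase, highest (0.03 ± 0.18), and neither passed. CDK1, which drives entry into mitosis, was at 17.3, 16.5 and 20.8 CPM against 23.4, 19.7 and 22.4 CPM, and its cyclin CCNB1 at 11.9, 14.4 and 14.2 CPM against 15.9, 12.9 and 17.6 CPM. In the mitotic role TEDC2, a centriole gene, was lowest (-0.62 ± 0.27) and the kinetochore motor CENPE highest (0.06 ± 0.27). Counted over the set, 8 members were lower at an unadjusted p under 0.05, 17.8% against 9.26% of all genes, and 13 members had every treated library below every saline library, 28.9% against 10.2% of all genes.

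At 6 hours after Beta-Ac, no member passed the thresholds, against 0.442% of all genes, and the median log2 value was 0.01 against 0.02 over all genes. At an unadjusted p under 0.05 edgeR gave 1 member, CDK6 (2.22% of members, against 6.53% of all genes higher), which DESeq2 also called. CDK6 was at 7.89, 4.32 and 13.2 CPM against 3.39, 4.38 and 3.36 CPM in saline libraries (log2 1.19 ± 0.33, adjusted p = 0.17). The library with 4.32 CPM lay within the saline range, and the one with 13.2 CPM was replicate 3, which was high in erythroid markers. Over 13 alternative fits the log2 value of CDK6 ran from 0.715 to 1.49, and it was called in 2 of them. In the other roles the lowest and highest values were -0.16 for PCNA and 0.26 for CDC45, -0.35 for CDC25C and 0.13 for CCNF, and -0.41 for NUSAP1 and 0.30 for TEDC2, and none passed.

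The clinical drug at 4 hours differed from Beta-Ac at 6 hours in 6 members, at a background of 6.74% of all genes. Dose and time both differ between these groups, so neither can be told apart from the formulation. CCND1 (-0.65 ± 0.18, adjusted p = 0.038), CDK6 (-1.66 ± 0.33, adjusted p = 0.010), E2F2 (-1.27 ± 0.41, adjusted p = 0.060), MCM5 (-0.63 ± 0.14, adjusted p = 0.017) and TEDC2 (-0.91 ± 0.27, adjusted p = 0.047) were lower with the clinical drug, where 4.11% of all genes were lower. CCNE2 alone was higher (0.63 with an adjusted p of 0.091), against 2.62% of all genes, at 10.1, 11.4 and 10.2 CPM compared with 5.26, 9.02 and 6.17 CPM.

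Several of these calls, and much of the size of the E2F2 difference, went with a single library. E2F2 was at 3.80, 6.33 and 17.5 CPM after Beta-Ac at 6 hours, the last in replicate 3, whose erythroid markers were high. Without that library the log2 value of E2F2 was -0.42 (adjusted p = 0.32), and 2 members, CCND1 and CDK6, passed instead of 6. Over 13 alternative fits the log2 values of MCM5 (-0.72 to -0.54), TEDC2 (-1.07 to -0.805) and CCNE2 (0.47 to 0.89) kept their sign. The calls were lost in 2 of these fits for MCM5, 4 for TEDC2 and 7 for CCNE2. Replicate 3 was the highest of all 15 lung libraries for 13 of the 45 members, and the part of erythroid cells in this was not tested. CDK6 was lower with the clinical drug in each of 13 alternative fits, with adjusted p up to 0.097. Without Beta-Ac replicate 1 the count was 10, without clinical replicate 2 it was 3, and with these groups fitted alone it was 1, CDK6.

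At 5 days no member passed the thresholds with either treatment, but in the Beta-Ac lungs the set lay low together. Over all genes, 1 of 17644 passed with Beta-Ac and 0 with the clinical drug. By contrast, the study called many genes for each treatment at this interval, with edgeR and the same thresholds. The cause of this difference was not tested. The absence of called members therefore does not show that they were unchanged. With Beta-Ac, 39 of the 45 log2 values were negative with a median of -0.35 against 0.01 over all genes, and edgeR and DESeq2 each called 0 members (background 0.00567% of all genes). At an unadjusted p under 0.05, 15 members were lower, 33.3% against 2.93% of all genes, and in 20 members all 3 treated libraries were below all 3 saline libraries, 44.4% against 6.4% of all genes. The smallest adjusted p of a member was 0.66, so no single gene can be named as changed. With any 1 library left out, the median stayed between -0.38 and -0.30 and the count at p under 0.05 ranged from 5 (without saline replicate 3) to 14. For fits with a library left out, here and below, the share of all genes at this p was not counted. In the same comparison all 6 endothelial markers had negative log2 values (median -0.305), 4 of them at an unadjusted p under 0.05, with summed levels of 2630 to 2740 CPM against 3160 to 3440 CPM in saline libraries. All 5 lung epithelial markers had positive values (median 0.473), with summed levels of 10900 to 12300 CPM against 7030 to 10400 CPM. All 5 were positive in the other lung comparisons with saline too. Their medians there were 0.582 (clinical drug, 4 hours), 0.399 (Beta-Ac, 6 hours) and 0.234 (clinical drug, 5 days). In the Beta-Ac lungs at 5 days none of these markers passed the thresholds, and their part in the members' values was not tested. In stained lung sections 5 days after treatment, the study saw no difference in the share of cells with epithelial or cell cycle marker proteins. Those are shares of cells by protein, not RNA levels in whole tissue.

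The mitotic genes were the lowest role in the Beta-Ac lungs at 5 days. All 13 had negative log2 values with a median of -0.59, and 8 of them were at an unadjusted p under 0.05. NUSAP1, which bundles spindle microtubules, was at 7.35, 9.18 and 7.63 CPM against 14.7, 12.3 and 14.8 CPM in saline libraries (log2 -0.79 ± 0.27, adjusted p = 0.68, edgeR). TPX2, which activates Aurora A on the spindle, was at 15.0, 10.3 and 10.6 CPM against 18.7, 17.9 and 20.9 CPM (-0.68 ± 0.21, adjusted p = 0.66). TOP2A, which untangles chromosomes, was at 23.9, 28.2 and 23.6 CPM against 29.8, 33.8 and 52.6 CPM, all below the lowest control. TEDC2 was the least negative of the role (-0.07 ± 0.27).

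In the G2/M role CDK1 was at 18.05, 15.7 and 11.98 CPM against 23.4, 19.7 and 22.4 CPM in saline libraries (-0.52 ± 0.17, adjusted p = 0.66). CCNB1 was at 11.8, 12.6 and 10.2 CPM, each below the saline minimum of 12.9 CPM, and FOXM1 at 13.3, 13.6 and 13.9 CPM, each below the minimum of 16.2 CPM. AURKB, the chromosomal passenger kinase, overlapped its controls at 4.81, 7.06 and 6.93 CPM against 8.62, 6.37 and 7.93 CPM. The extremes were CDC25C (-0.63 ± 0.27) and CCNF (0.16 ± 0.13). In the replication role RRM2 was lowest (-0.57 ± 0.24), at 11.5, 14.3 and 13.4 CPM against 17.0, 20.9 and 20.2 CPM, and CDT1, the licensing factor, highest (0.07 ± 0.27). MCM2 (-0.15 ± 0.12) and PCNA (-0.11 ± 0.17) overlapped their controls. In the G1 role E2F2 (-0.54 ± 0.41) and CDK6 (0.57 ± 0.32) were the extremes, and E2F1 was at -0.21 ± 0.30.

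Between 6 hours and 5 days of Beta-Ac no member was called, against 0.261% of all genes, though DESeq2 called TPX2. At an unadjusted p under 0.05, 10 members were lower at 5 days, 22.2% against 4.4% of all genes, and the median was -0.35. Without Beta-Ac 6 h replicate 3, the library high in erythroid markers, 3 members were at this p and the median was -0.249, and without Beta-Ac 6 h replicate 1 the values were 16 and -0.452. The remaining libraries of these groups, left out in turn, gave 6 to 7 members. The share of all genes was not counted for these reduced fits. Fitted with edgeR, TPX2 showed the smallest p of these (-0.76 ± 0.21, adjusted p = 0.24).

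The clinical drug at 5 days gave smaller values whose libraries disagreed. Its median log2 value against saline was -0.15, with 38 of 45 negative, and edgeR found 0 members past the thresholds (0% of all genes), 0 at an unadjusted p under 0.05 and 0 with DESeq2. Because the study did call genes in this comparison, these counts do not show that the members were unchanged. Without clinical 5 d replicate 3 there were 12 members at an unadjusted p under 0.05 and the median was -0.269, and without replicate 1 there were 0 and the median was -0.0125. Clinical 5 d replicate 1 had the lowest level of its group for 37 of the 45 genes, and replicate 3 the highest for 32. The median of the mitotic genes, relative to the saline mean, was -0.73 in replicate 1, -0.26 in replicate 2 and 0.20 in replicate 3 on the log2 scale, against -0.46, -0.51 and -0.62 in the Beta-Ac libraries. The role extremes were E2F2 (-0.36) and CDK6 (0.29), RRM2 (-0.26) and MCM2 (0.04), CCNA2 (-0.34) and AURKB (0.26), and NUSAP1 (-0.39) and CDC20 (-0.03). Set against each other at 5 days, at doses of 0.25 and 0.125 mg/kg, the treatments gave no called member (0% of all genes), with 1 (KIF11, higher with the clinical drug by 0.62 ± 0.27) at an unadjusted p under 0.05 (2.22% against 1.69% of all genes higher) and 0 with DESeq2. The median difference was 0.21, and 39 of 45 log2 values were positive. Without clinical 5 d replicate 1 the count at an unadjusted p under 0.05 was 15 and the median 0.343, without replicate 3 they were 0 and 0.0189, and the other libraries left out in turn gave 0 to 2 members. For none of the reduced fits at 5 days was the share of all genes at this p counted.

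**Figure D2:**
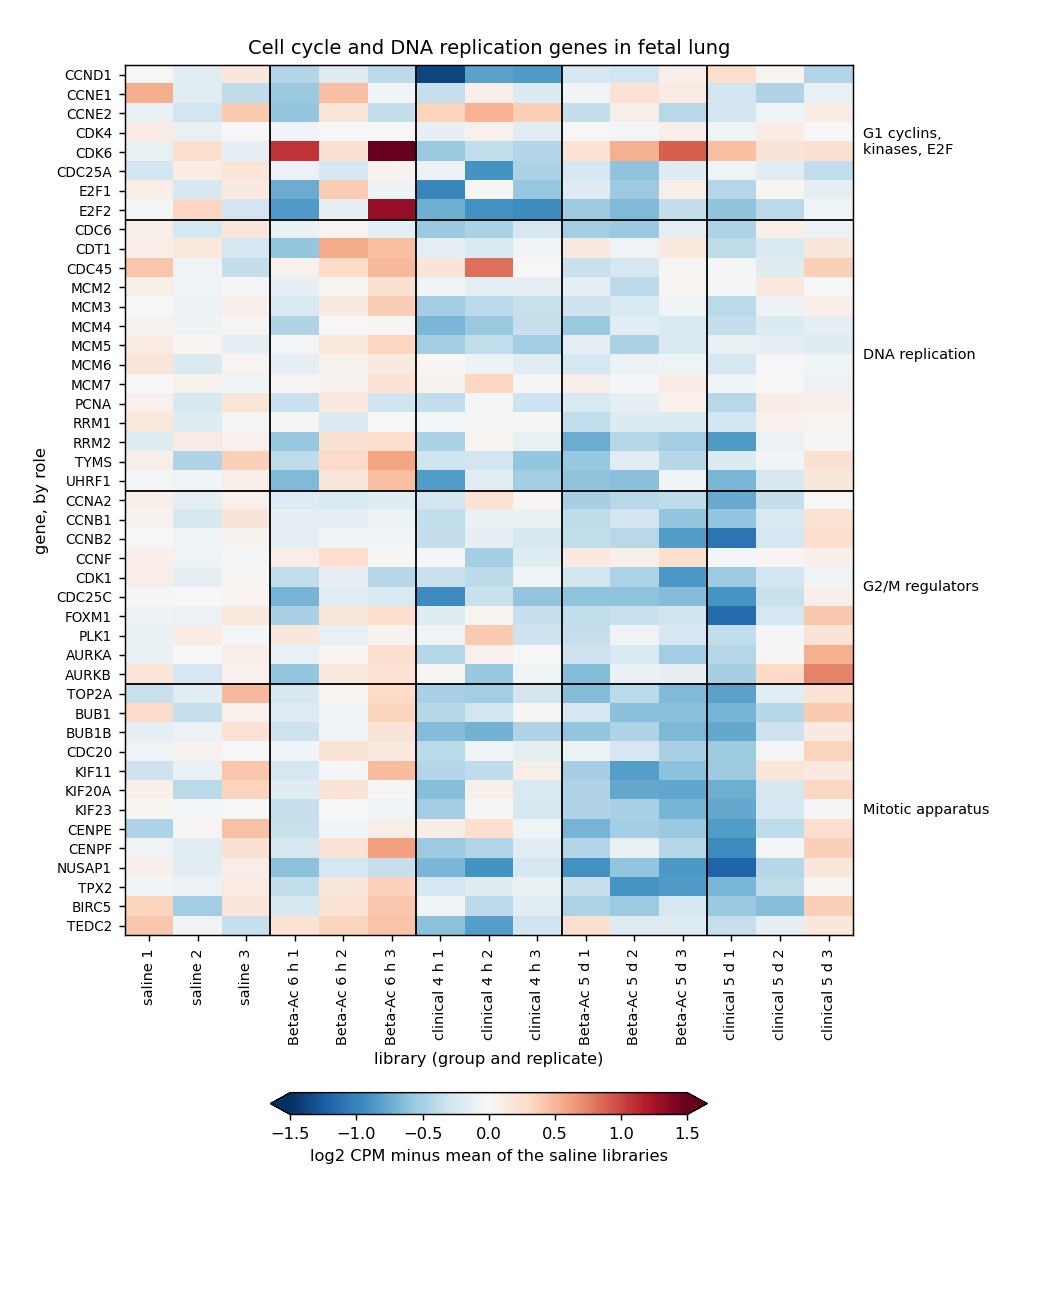
Colour gives log2 CPM minus the mean of the saline libraries for 45 genes (rows, by role) in 15 lung libraries (columns, by group); blue is lower and red higher. The mitotic rows are mostly blue in all 3 Beta-Ac 5 d libraries, with TEDC2 red in replicate 1, and in clinical 5 d replicate 1, whereas clinical 5 d replicate 3 is mostly red.

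Further genes of the same pathways, from lists of 55 replication, 61 mitosis and 42 control genes, were measured to set the members in context. Of 53 other mitosis genes tested in lung, 52 had negative log2 values in the Beta-Ac lungs at 5 days, with a median of -0.43. At an unadjusted p under 0.05, 16 of them were lower, against 2.93% of all genes, and none passed the thresholds. In the clinical drug at 4 hours 43 of 53 were negative with a median of -0.27, and RACGAP1, a cytokinesis regulator, rose by 1.31 ± 0.19 (adjusted p = 0.000632) while TROAP (-0.67) and PTTG1, the securin gene (-0.65), fell. Of the control genes CDC25B, a CDK-activating phosphatase (1.28 ± 0.17, adjusted p = 0.000326), and GADD45B, a stress-induced inhibitor of the cycle (1.76 ± 0.41, adjusted p = 0.015), rose. None of 53 replication genes passed at 4 hours, and 33 control genes were tested. In this comparison 7.4% of all genes passed, 3.46% higher and 3.94% lower.

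Of these genes all but TROAP also passed between the early and late libraries of the clinical drug, and CCND3, another cyclin D gene, passed there as well. In that comparison 10.4% of all genes passed, 5.92% higher and 4.47% lower. At 5 days compared with 4 hours RACGAP1 was lower by 1.42, GADD45B by 1.70, CDC25B by 0.80 and CCND3 by 0.77 on the log2 scale, and PTTG1 was higher by 0.67. RACGAP1 was also lower at 5 days than at 6 hours of Beta-Ac (-1.12 ± 0.19, adjusted p = 0.043). Between the early groups POLE2 (0.92), ECT2 (0.65) and CDC25B (0.60) were higher with the clinical drug, and GINS4 (-0.93) and TIMELESS (-0.61) lower. There 6.74% of all genes passed, 2.62% higher and 4.11% lower. In all other lung comparisons no gene of these lists was called.

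**Figure D3:**
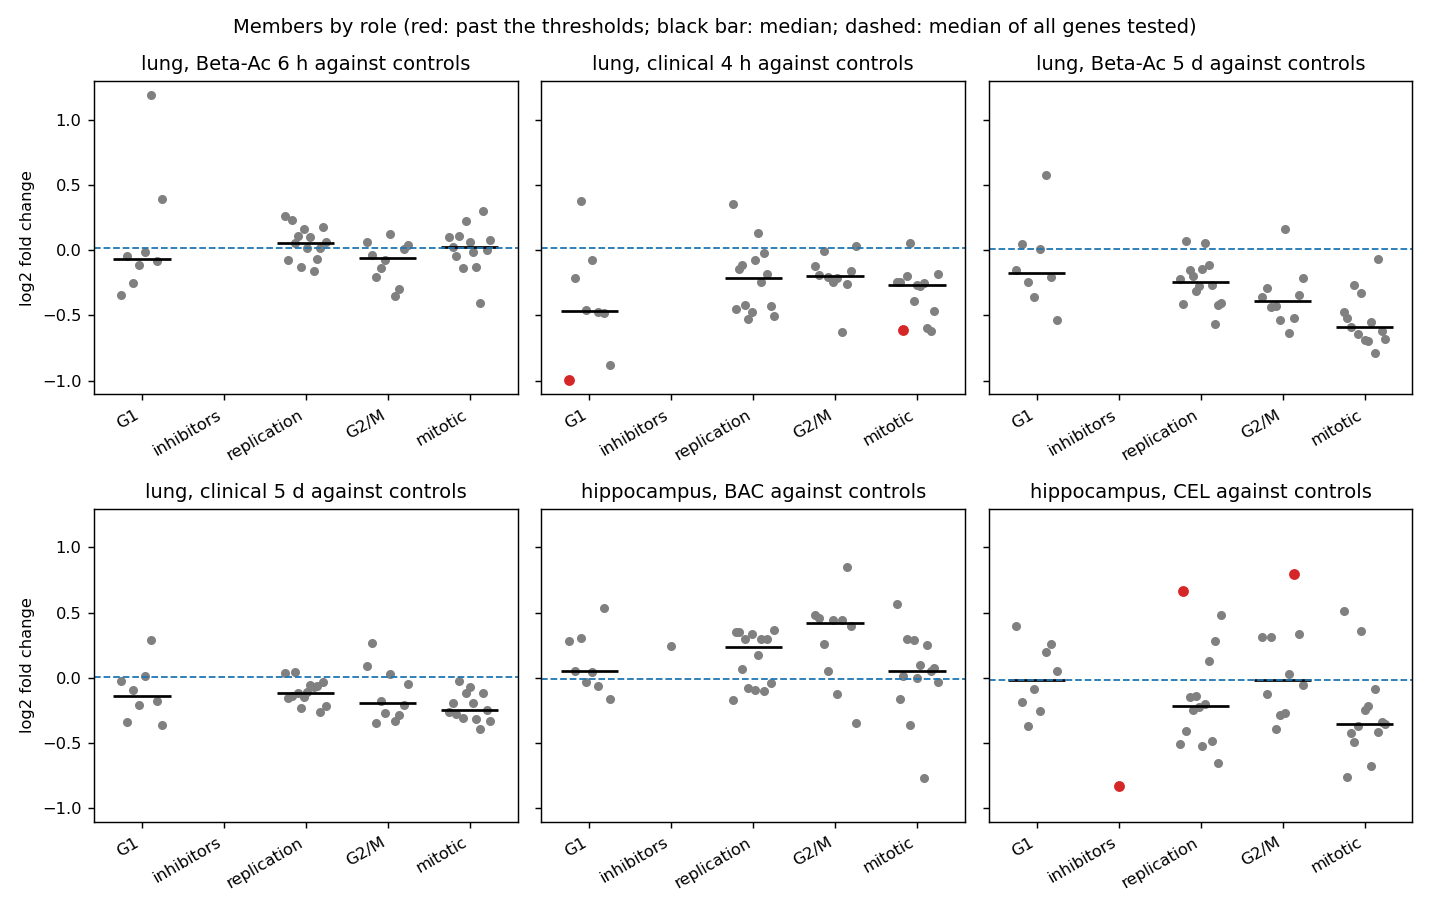
Log2 fold change of each member (points) against its controls, by role on the horizontal axes, for 4 lung and 2 hippocampus comparisons; red points passed the thresholds, black bars are role medians and the dashed line is the median of all genes tested. The mitotic median is -0.59 in the Beta-Ac lungs at 5 days, where no point passed.

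In the hippocampus 3 of the 46 genes passed the thresholds between CEL, read as the clinical drug, and CTL. CDC6, a licensing factor that loads the MCM helicase, and CDK1 rose, and CDKN1C, which encodes the CDK inhibitor p57, fell. Among all genes 7.86% passed, 2.5% higher and 5.35% lower, so the 6.52% of members called was near the background. The members' median log2 value was -0.21 against -0.02 over all genes, and 31 of 46 were negative. At an unadjusted p under 0.05, 6 of the 46 members were lower, against 17.6% of all genes. Markers of other cells moved in this comparison too. Of 6 neural progenitor markers measured, 5 had positive log2 values (median 0.519) and NES and HOPX passed, with summed levels of 666 to 933 CPM in CEL against 526 to 929 CPM in CTL. All 4 macrophage and microglia markers were positive and P2RY12 and C1QC passed (91.5 to 156 against 61.2 to 133 CPM summed). All 3 choroid plexus markers were lower, at 0.98 to 3.16 CPM summed in CEL against 2.04 to 770 CPM in CTL. These ranges overlap, and the 770 CPM was in CTL replicate 5. No progenitor or microglia marker was at 0 in every library, and the part of these cells in the members' values was not tested.

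CDKN1C, the only CDK inhibitor measured among the members, was at 6.19, 8.90, 10.3, 9.97 and 9.09 CPM in the CEL libraries and 12.3, 15.5, 9.34, 29.4 and 12.4 CPM in the CTL libraries. 1 CTL library lay among the treated libraries, and the log2 fold change was -0.83 ± 0.29 (adjusted p = 0.072, edgeR with Benjamini-Hochberg adjustment). The BAC libraries, at 12.4, 30.1, 18.9, 18.1 and 14.3 CPM, were all above the CEL libraries, with a log2 difference of CEL minus BAC of -1.07 ± 0.29 (adjusted p = 0.22). Without CTL replicate 4, the highest control, the log2 value against CTL was -0.46 (adjusted p = 0.21). With the sequencing run in the fit it was -0.29 (adjusted p = 0.57).

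In the replication role CDC6 was at 5.50, 6.43, 6.03, 7.44 and 7.28 CPM in CEL libraries and at 4.05, 4.90, 4.21, 4.20 and 3.20 CPM in CTL libraries, with no overlap. Its log2 fold change was 0.67 ± 0.19 (adjusted p = 0.033), and it passed in 20 of 22 alternative fits. The exceptions were the 3 animals a group that also gave lung RNA (0.45, adjusted p = 0.12) and the sequencing runs that held all groups (0.83, adjusted p = 0.16). BAC libraries, at 4.80, 5.52, 5.46, 7.11 and 3.32 CPM, overlapped both groups.

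The helicase subunit MCM6 and the ribonucleotide reductase subunit RRM1 lay on the other side and passed the adjusted p but not the fold of 1.5. MCM6 was at 30.7, 25.6, 27.7, 25.2 and 25.8 CPM in CEL libraries and 45.2, 37.5, 34.7, 39.7 and 36.9 CPM in CTL libraries (log2 -0.52 ± 0.10, adjusted p = 0.014). Every BAC library, at 37.3, 34.4, 31.6, 39.5 and 38.6 CPM, was also above every CEL library. RRM1 was at 37.2, 33.1, 34.1, 34.6 and 33.6 CPM in CEL libraries and 52.4, 44.7, 47.2, 43.4 and 53.5 CPM in CTL libraries (-0.48 ± 0.11, adjusted p = 0.019). Across 22 alternative fits the log2 value stayed between -0.57 and -0.39 for MCM6 and between -0.52 and -0.44 for RRM1, with adjusted p up to 0.16 and 0.14. Other MCM subunits were closer to control, from -0.25 (MCM3) to -0.14 (MCM4), and TYMS, thymidylate synthase, was lowest of the role (-0.66 ± 0.41). MCM2 (-0.15 ± 0.18), PCNA (0.13 ± 0.14) and RRM2 (0.28 ± 0.24) did not pass.

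Among G2/M genes CDK1 was at 2.998, 2.01, 1.94, 1.23 and 1.497 CPM in CEL libraries and 1.101, 0.933, 1.16, 1.03 and 1.32 CPM in CTL libraries (log2 0.80 ± 0.29, adjusted p = 0.081). These levels rest on 22 to 33 reads a library in CTL and 28 to 61 in CEL, and the call was lost in 11 of 22 alternative fits. The BAC libraries were at 3.07, 1.03, 1.99, 2.28 and 1.63 CPM (0.85 ± 0.29, adjusted p = 0.28). CCNB1, the cyclin that CDK1 needs at mitosis, was lower in every CEL library (10.6 to 12.4 CPM) than in any CTL library (13.5 to 18.5 CPM), at -0.39 ± 0.17 (adjusted p = 0.13). CCNB1 was the lowest of the role. CCNA2 (0.31 ± 0.11, adjusted p = 0.077), FOXM1 (0.33 ± 0.23) and AURKB (-0.13 ± 0.32) were not called.

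In the mitotic role 11 of 13 genes had negative log2 values in CEL, with a median of -0.35 and none called. BUB1, a checkpoint kinase, was lowest (-0.76 ± 0.36, adjusted p = 0.16), with 3.10, 3.19, 3.24, 2.80 and 3.05 CPM against 8.41, 3.66, 4.25, 3.29 and 6.56 CPM, and BIRC5, the survivin gene, highest (0.51 ± 0.29). BUB1, BUB1B, CCNB1, MCM6 and RRM1 were the 5 members with every CEL library below every CTL library, 10.9% against 10% of all genes. TOP2A (-0.34 ± 0.26) and TEDC2 (-0.42 ± 0.22) did not pass. In the G1 role CCND1 was at 99.0, 113, 107, 83.0 and 136 CPM against 68.9, 65.2, 88.6, 61.0 and 125 CPM (0.40 ± 0.21, adjusted p = 0.22), the highest of the role. CCNE2 was the lowest (-0.37 ± 0.25), and E2F1 stood at 0.26 ± 0.26.

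**Figure D4:**
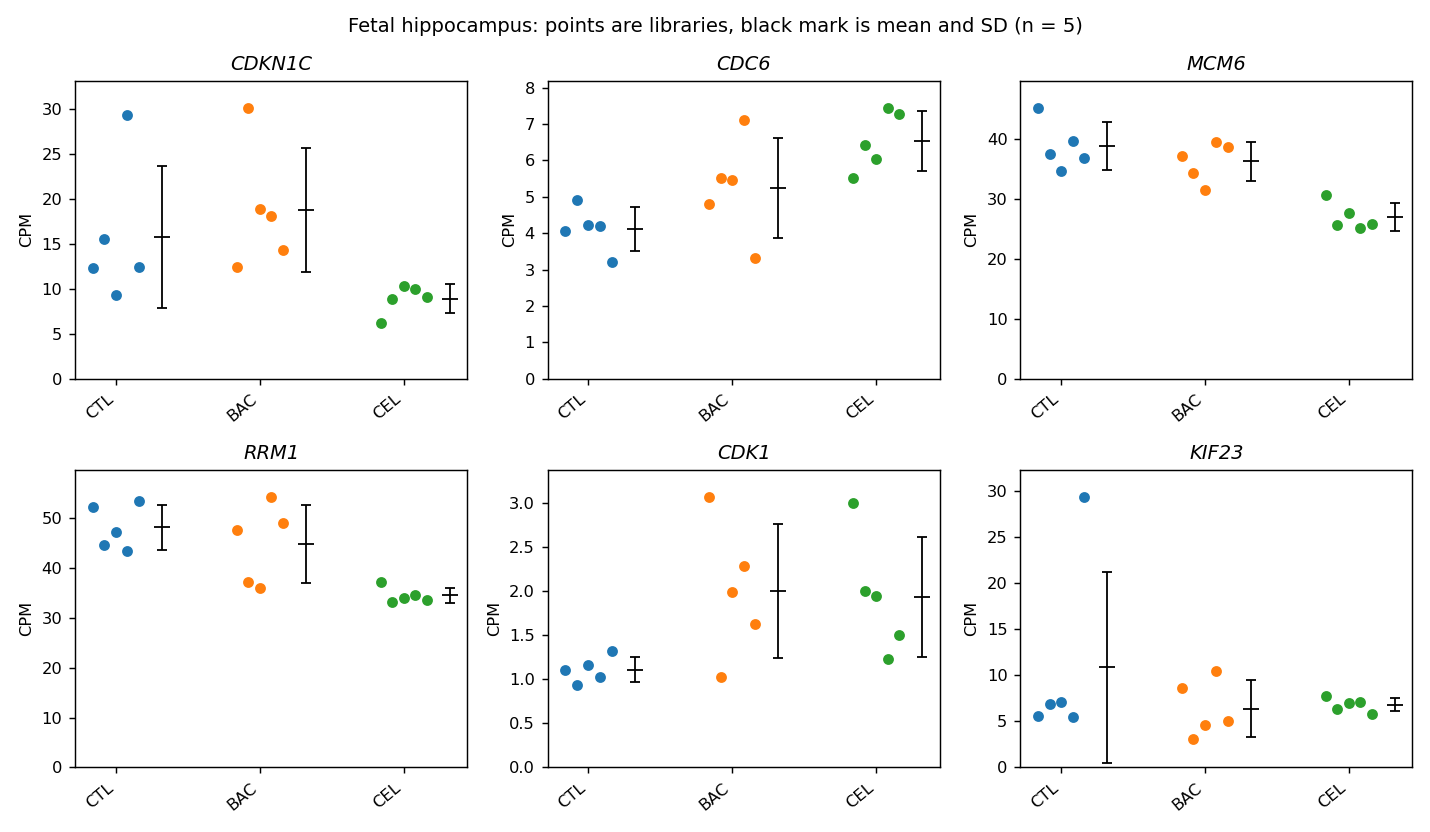
Level in CPM (vertical axes, from 0) of 6 genes in each hippocampus library, by group on the horizontal axes, with the mean and SD of 5 libraries in black. MCM6 in CEL (25.2 to 30.7 CPM) lies below CTL and BAC, and 1 CTL library stands far above the rest for KIF23 (29.4 CPM).

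Sequencing run was not balanced between these groups. The CTL libraries came from 4 runs and the BAC and CEL libraries from 2 of them. Restricted to those 2 runs, which leaves 2 CTL libraries, no member was called. In that fit run and the loss of libraries cannot be told apart. With run as a term in the fit, CDC6 alone was called.

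The control with choroid plexus RNA also stood apart in the members. CTL replicate 5 was the highest of its group for 31 of 46 genes, and KIF23, a kinesin of cytokinesis, was at 29.4 CPM there against 5.43 to 7.14 CPM in the other controls. BAC replicate 4 was the highest of all 15 libraries for 30 of the 46 genes, with a median 0.73 above the control mean on the log2 scale, and BAC replicate 2 the lowest for 18, with a median 0.34 below (-0.34). In the BAC group the summed neural progenitor markers ranged from 758 to 919 CPM and were highest in replicate 2, and the summed neuron markers ranged from 3150 to 4960 CPM and were highest in replicate 4. The part of tissue composition in these levels was not tested. Without CTL replicate 5 and BAC replicate 4, 6 members passed between CEL and CTL: the same 3 genes with BIRC5, CCND1 and UHRF1, and the median was -0.08. Among all genes, 1516 of the 17243 tested then passed. The count of members at an unadjusted p under 0.05, in either direction, was 20 instead of 9. The 9 were 19.6% of the members, against 30.6% of all genes, and the share of all genes was not counted for the reduced fit.

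**Figure D5:**
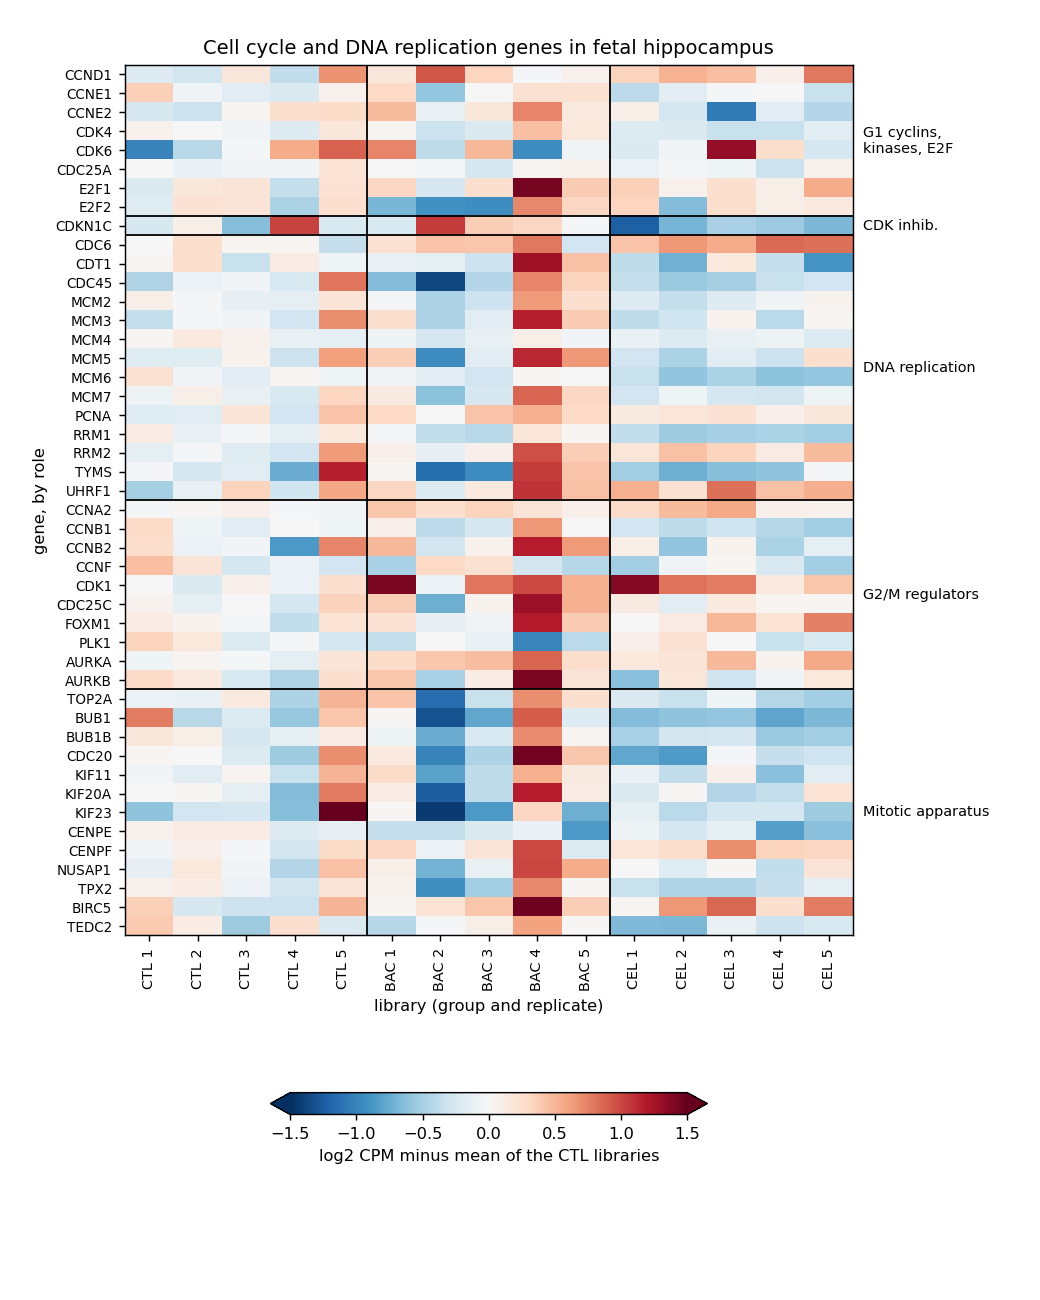
Colour gives log2 CPM minus the mean of the CTL libraries for 46 genes (rows, by role) in 15 hippocampus libraries (columns, by group); blue is lower and red higher. BAC 4 is red in most rows (median 0.73) and BAC 2 blue (median -0.34), and CTL 5 is reddest at KIF23.

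Between BAC, read as Beta-Ac, and CTL no member was called (0% of all genes) by edgeR or DESeq2. At an unadjusted p under 0.05 edgeR gave 4 members, all higher: CDK1, AURKA, CCNA2 and PCNA. They were 8.7% of the members, against 4.81% of all genes higher and 12.3% of all genes in either direction, and the count in either direction ranged from 2 to 9 with any 1 library left out (9 without CTL replicate 5 and 9 without BAC replicate 2). The median was 0.13, and it ranged from -0.03 to 0.25 with any 1 library left out. The share of all genes at an unadjusted p under 0.05 was not counted for those fits. Role extremes were E2F2 (-0.17) and E2F1 (0.53), CDC45 (-0.17) and UHRF1 (0.37), PLK1 (-0.35) and CDK1 (0.85), and KIF23 (-0.77) and BIRC5 (0.56), and CDKN1C was at 0.25 ± 0.29.

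Between CEL and BAC, at labelled intervals of 5 days and at doses that differ, edgeR called no member (0% of all genes), and DESeq2 called CDKN1C. At an unadjusted p under 0.05, 9 members were lower in CEL, 19.6% against 8.06% of all genes, led by MCM6 (-0.43 ± 0.10, adjusted p = 0.21), CDKN1C and RRM1 (-0.38 ± 0.11, adjusted p = 0.23). MCM6 and CDKN1C were the 2 members with no overlap, 4.35% against 1.21% of all genes. The median over the members was -0.29. Without BAC replicate 2 there were 21 members at an unadjusted p under 0.05 and the median was -0.41, without BAC replicate 4 there were 5 and the median was -0.08, and with the other libraries left out in turn there were 6 to 12. The share of all genes at this p was not counted for these fits, so the counts have no background.

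Of the other pathway genes, 53 replication, 55 mitosis and 35 control genes were tested in hippocampus. CEL differed from CTL in 5 of them, at a background of 7.86% of all genes, 2.5% higher and 5.35% lower. LIG1, the replicative DNA ligase (-0.91 ± 0.19, adjusted p = 0.014), CHEK1, the replication checkpoint kinase (-0.71 ± 0.14, adjusted p = 0.014), and LIN9, a partner of the mitotic gene activators (-0.61 ± 0.22, adjusted p = 0.073), fell. KNL1, a kinetochore scaffold (0.70 ± 0.26, adjusted p = 0.081), and E2F3 (0.59 ± 0.12, adjusted p = 0.014) rose. None was called in the other hippocampus comparisons.

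The tables of the tissues were made and normalized separately, so control levels are set side by side without a test. The 3 saline lung animals also gave 3 of the 5 CTL libraries, and this pairing was not used. Of 45 genes measured in both, 27 had every saline lung library above every CTL hippocampus library, 5 had the reverse and 13 overlapped. KIF23 overlapped only through CTL replicate 5 (29.4 CPM). The other controls were at 5.43 to 7.14 CPM and the saline lungs at 18.1 to 18.8 CPM. That is 60.0% above and 11.1% below, against 40.1% and 34.8% of the 13058 identifiers tested in both tissues. RRM2 was at 19.4 ± 2.1 CPM (SD, n = 3) in lung and 2.36 ± 0.71 CPM (SD, n = 5) in hippocampus, and CDK1 at 21.8 ± 1.9 and 1.11 ± 0.15 CPM. PLK1 (21.5 and 78.6 CPM), CCNF (17.9 and 49.1 CPM), MCM4 (31.2 and 78.8 CPM), CDC25A (4.42 and 12.8 CPM) and CCNE1 (3.84 and 7.58 CPM) were the 5 higher in hippocampus.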

How the data were processed

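Whole lung (15 fetuses) and hippocampus (15 fetuses) RNA was sequenced by the study. The authors deposited raw counts of reads per gene for each tissue, made with Bowtie 1.2.1.1 and featureCounts 1.5.1 for lung and with Bowtie2 and featureCounts (versions not given in the sources used here) for hippocampus, per the submitters' processing notes. The study's methods name Bowtie 2 and the rhesus genome MMUL1.0 without separating the tissues. Reads were paired, and hippocampus RNA was polyA-selected. The tables share 20572 gene identifiers, so their annotation releases may differ. Whether strand was used in counting is not given in the sources used here.

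Identifiers were paired with symbols from the gene name table (15769 in lung and 17621 in hippocampus matched). Genes with at least 7 reads in 3 lung or 5 hippocampus libraries were kept, and all matched members passed. Each tissue was fitted once over all its groups with edgeR 4.0.16 (R 4.3.3), TMM normalization and the quasi-likelihood F-test. Calls needed a 1.5-fold change, an unadjusted p below 0.05 and an adjusted p below 0.1 (Storey's q in lung, Benjamini-Hochberg in hippocampus), with the adjustment made over all genes tested. The SE was the log2 fold change divided by the root of F. DESeq2 1.42.0 and the other alternatives are given with the closing observations. The fit was tested on simulated data.

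No sample column was left unmapped, and no library duplicated another of its group. Libraries of different groups were not compared in this way. Groups came from the labels, with the hippocampus groups from the library names. The numbers of replicates follow the order of the samples and pair nothing. Genes named were fixed regulators, every called member, the highest and lowest member of each role against controls, and up to 3 called genes a direction from each list of other genes. The members and lists were chosen with earlier results of these data known. Depth limits the low members: CDK1 in hippocampus rested on as few as 22 reads a library.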

Additional observations from a re-analysis of the deposited data

Results flagged for a closer look

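In groups of 5 hippocampus libraries, 13 of 138 sets of values had 1 library far from the rest by Dixon's criterion, a test that chance passes in about 1 of 20 groups. The criterion sets the gap to the nearest library against the range of the group, so a flagged gap can be small. In CTL replicate 5, the library with choroid plexus RNA, CDC25A (14.8 CPM, the nearest control at 12.7 CPM), CDC45 (2.52 CPM), MCM3 (13.2 CPM), RRM2 (3.6 CPM), TYMS (8.88 CPM) and KIF23 (29.4 CPM) were flagged above the other controls. In BAC replicate 4, E2F1 (9.47 CPM), FOXM1 (19.8 CPM), AURKA (4.1 CPM, the nearest BAC library at 3.06 CPM) and BIRC5 (8.38 CPM) were flagged above the rest of their group. In CEL, CDK6 (14.1 CPM) and CENPF (29.5 CPM) stood apart in replicate 3 and TYMS (3.82 CPM) in replicate 5.

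The effect of the clinical drug on CCND1 differed between 4 hours and 5 days in lung, by 0.98 on the log2 scale in the direct comparison of these groups, which is the same difference because they share the saline controls.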

How the results depend on the processing

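Within a tissue no paired analysis was possible because the groups are different animals and the labels give no shared replicate numbers. Animals shared between the tissues were not paired. Of 170 alternative counts of members called, 139 stayed within 1.5 times the count reported, and none of the 32 log2 values (1 gene in 1 comparison each) that were recomputed under the alternatives changed sign. Other log2 values given for members, among them those near 0, were not recomputed.

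For the clinical drug at 4 hours against saline (2 called), the count was 1 without a filter, 1 with Benjamini-Hochberg adjustment, 5 without the fold threshold and 1 to 3 with any 1 library left out. Against Beta-Ac at 6 hours (6 called) it was 10 without the fold threshold, 1 with only the 2 groups fitted and 2 to 10 with any 1 library left out. For Beta-Ac at 6 hours against saline (0 called) it was 1 with DESeq2 and 0 to 1 with any 1 library left out. For 5 days against early libraries it was 2 with filterByExpr, 2 with DESeq2 and 2 with only the 2 groups fitted for the clinical drug (1 called), and 1 with DESeq2 for Beta-Ac (0 called). Over all genes, 1306 were called for the clinical drug at 4 hours against saline. There were 1050 without a filter, 1099 with Benjamini-Hochberg adjustment and 2104 without the fold threshold. Against Beta-Ac at 6 hours the count over all genes was 1189, with 2389 without the fold threshold and 314 with only the 2 groups fitted.

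For CEL against CTL (3 called) the count of members was 6 without the fold threshold, 1 with run as a covariate, 0 in the runs with all groups, 1 in the animals with a lung library and 1 to 5 with any 1 library left out. An alternative chosen after seeing the data, without CTL replicate 5 and BAC replicate 4, gave 6 members. Over all genes the count was 1366 in the main fit, 3816 without the fold threshold and 958 with run as a covariate. It was 229 in the runs with all groups and 1426 in the animals with a lung library. CEL against BAC (0 members called) gave 1 member with DESeq2. Dropping the fold threshold raises a count by construction, and the cause of the other changes was not tested.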
